A study of Homo sapiens with 60 samples.

Results

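Paeoniae Radix is the dried root of the peony, used in East Asian tonic formulas. Its 70% ethanol extract was given to A549 cells for 24 h at 20, 100 and 500 µg/mL, with 1 library of messenger RNA at each dose. These 3 libraries are 3 of the 60 in the series. They were taken by their labels. A549 is a human lung adenocarcinoma line with epithelial features and an inactivating mutation in KEAP1, the brake on the oxidative stress factor NRF2. The libraries set beside them were 3 of cells given a 70% ethanol extract of Angelicae Gigantis Radix (the root of Korean angelica) at the same 3 doses, carried in the same set of sample codes, and 3 of vehicle-treated cells. The other 6 extracts of the series, each at the same doses, were ethanol extracts of Panax Ginseng, Poria Cocos, Atractylodis Rhizoma and Glycyrrhizae Radix and water extracts of the formulas Sibjeondaebo-tang and Palmul-tang. They served for scaling, for replicate error and to show where the Paeoniae extract differed. The vehicle is 0.1% DMSO on the library labels and 2% in the series description. That description also gives lower doses, set by toxicity, for extracts that impaired cells below 500 µg/mL, while the labels give 500 µg/mL for Paeoniae. Doses below are those on the labels.

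With 1 library per dose no p-value can be given for a dose or an extract. Each value stands as a measurement of these libraries. The replicate error was read from the 51 pairs of replicate libraries in the 19 groups of the series that have more than 1 library, which are the vehicle and these 6 extracts at each dose. Whether replicate libraries came from separate cultures is not stated, so their spread may be technical. Levels are CPM, counts per 1000000 after libraries were scaled for their composition. The scaling takes the typical gene as unchanged, so the median difference over all measured genes, given below, is set by it. CPM is not corrected for transcript length, so it compares a gene between libraries and not one gene with another. Differences are log2 ratios of CPM plus 1, with the first-named library on top. A gene was called when it was past 1.5-fold (0.58 on the log2 scale), among the 13666 genes that averaged at least 1 CPM over the 6 Paeoniae and Angelicae libraries. Intervals are 95% exact intervals of the ratio of counts and cover counting error only.

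Several gene programmes come up below. Hypoxia-inducible factors (HIF) are transcription factors whose alpha subunit is hydroxylated by the EGLN enzymes, which need oxygen, iron and 2-oxoglutarate, and is then bound by VHL and degraded. Unhydroxylated HIF-alpha pairs with ARNT and activates genes for glucose uptake, glycolysis, blood vessel growth, mitophagy and acid export. ATF4 is translated when the initiation factor eIF2 is phosphorylated under amino acid shortage or other stress, and it activates genes for amino acid synthesis and uptake. SREBP factors are released from the endoplasmic reticulum when sterols are low and activate cholesterol and fatty acid synthesis. p53 activates cell cycle inhibitors and apoptosis genes.

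The 6 libraries held 22002777 to 24257941 counts. Mitochondrially encoded genes took 25.9%, 19.8% and 24.3% of the counts at 20, 100 and 500 µg/mL Paeoniae, against 18.4% to 19.8% with Angelicae and 15.9% to 19.1% in the vehicle. The 20 and 500 µg/mL Paeoniae libraries were the first and second highest of all 60 in this share, whose range in the series was 14.5% to 25.9%. The 20 µg/mL library, which serves below as the low-dose reference, therefore stands apart. There 12 of the 13 mitochondrial messenger genes were at their highest of 60 libraries, against 3.76% of all measured genes. At their lowest of 60 there were 4.32% of all measured genes, 4 of 22 p53 targets and 4 of 26 ATF4 targets. Other lists ranged from 0 of 15 heat-shock genes to 4 of 19 TGF-beta and matrix genes, with 3 of 15 proteasome genes. Neither the p53 nor the ATF4 list had a gene at its highest there. In the 100 µg/mL library 0.871% of all measured genes were at their highest and 0.659% at their lowest. MT-ATP8, which overlaps MT-ATP6 so that their reads can be shared, was 1.29 lower at 500 than at 20 µg/mL, within the 1.40 seen between replicate libraries. Results were therefore also set against the vehicle, Angelicae 20 and Paeoniae 100. The summed level of 10 A549 epithelial markers was 16992, 18049 and 13628 CPM at 20, 100 and 500 µg/mL, against 17495 to 18138 with Angelicae and 20081 to 20720 in the vehicle. In bulk RNA, fewer cells of a kind and less RNA per cell cannot be told apart, here and below. Fibroblast markers, 4 of 8 measured, summed to 15.9 to 17.9 CPM in the Paeoniae libraries, against 16.2 to 19.4 CPM with Angelicae. Blood cell markers summed to 28.0, 25.4 and 55.3 CPM at 20, 100 and 500 µg/mL, against 18.2 to 23.2 CPM with Angelicae. Only CD68, which also marks lysosomes, was measured among the 7, and PTPRC, the pan-leukocyte marker, was at 0 in the 3 Paeoniae libraries. Endothelial markers summed to 23.9, 22.2 and 11.8 CPM at these doses, against 19.6 to 21.3 CPM with Angelicae. KDR alone of those 6 was measured and VWF was at 0. The part of the mitochondrial share and of these markers in the results below was not tested.

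Promoters of genes on the 2 lists with the most calls at 500 µg/mL are shown here because short recognition letters are known for both factors. The sequences are from RefSeq on build GRCh38.p14 and run from 250 bases before to 50 bases after the annotated start. ACGTG, the core of the HIF response element, was searched on both strands. It overlaps the E-box CACGTG, which other factors bind and which counts as 2 matches, 1 on each strand. It occurred in 10 of the 18 hypoxia and glycolysis genes with a promoter entry (55.6%), against 21.6% of all 27305 promoters. CA9 (chr9:35673678-35673977, plus strand) holds 1 match, BNIP3 (chr10:131981874-131982173, minus strand) 2 and ALDOC (chr17:28576846-28577145, minus strand) 3. Capitals mark the matches.
CA9: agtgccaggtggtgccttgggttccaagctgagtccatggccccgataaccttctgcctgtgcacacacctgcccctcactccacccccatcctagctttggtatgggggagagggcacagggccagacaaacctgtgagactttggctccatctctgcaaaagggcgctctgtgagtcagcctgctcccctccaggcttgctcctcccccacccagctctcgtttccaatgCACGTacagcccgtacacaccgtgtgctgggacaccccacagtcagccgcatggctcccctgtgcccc
BNIP3: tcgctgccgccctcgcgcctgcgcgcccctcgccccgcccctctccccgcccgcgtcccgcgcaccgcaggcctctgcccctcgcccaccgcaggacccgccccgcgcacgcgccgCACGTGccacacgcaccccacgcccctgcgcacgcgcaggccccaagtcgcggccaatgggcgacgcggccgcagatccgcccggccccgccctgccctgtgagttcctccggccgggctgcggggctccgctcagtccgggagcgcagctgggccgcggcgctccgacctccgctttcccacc
ALDOC: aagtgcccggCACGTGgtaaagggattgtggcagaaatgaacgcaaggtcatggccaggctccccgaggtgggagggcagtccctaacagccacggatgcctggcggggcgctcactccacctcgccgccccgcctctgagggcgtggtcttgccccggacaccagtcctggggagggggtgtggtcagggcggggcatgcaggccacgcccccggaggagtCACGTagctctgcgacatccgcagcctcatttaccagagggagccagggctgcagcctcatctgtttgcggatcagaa
TGATGNAA, the composite element that ATF4 binds with a C/EBP partner, was searched in the same way. It occurred in 4 of 21 ATF4 target promoters (19%), against 3.67% of all promoters. ASNS (chr7:97872359-97872658, minus strand) and CHAC1 (chr15:40953221-40953520, plus strand) hold 1 each.
ASNS: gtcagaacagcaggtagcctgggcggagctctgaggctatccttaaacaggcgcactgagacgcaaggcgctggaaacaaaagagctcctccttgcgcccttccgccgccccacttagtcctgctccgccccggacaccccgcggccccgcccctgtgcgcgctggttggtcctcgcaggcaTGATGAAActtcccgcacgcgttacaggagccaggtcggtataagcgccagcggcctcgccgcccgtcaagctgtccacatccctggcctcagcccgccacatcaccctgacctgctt
CHAC1: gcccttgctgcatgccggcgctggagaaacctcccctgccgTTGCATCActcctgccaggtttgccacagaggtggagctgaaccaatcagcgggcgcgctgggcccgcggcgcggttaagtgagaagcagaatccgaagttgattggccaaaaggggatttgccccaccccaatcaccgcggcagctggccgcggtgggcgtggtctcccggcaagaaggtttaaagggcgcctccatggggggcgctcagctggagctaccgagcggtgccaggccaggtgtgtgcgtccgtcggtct
A match is a description of the letters in this window and shows no binding.

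The Paeoniae response lay mostly in the step to 500 µg/mL. Between 500 and 20 µg/mL, 1487 genes were higher and 1536 lower past 1.5-fold, together 22.1% of those measured (10.9% higher and 11.2% lower). The counts of list genes called between these doses, given below, stand beside those shares. The 51 replicate pairs gave 56 to 255 genes past 1.5-fold, with a median of 84 (0.615%). Of the 3023 genes, 2858 also exceeded the largest difference of that gene in any replicate pair (20.9% of those measured). With the vehicle mean, Angelicae 20 or Paeoniae 100 in place of Paeoniae 20, the 500 µg/mL library had 1582, 1383 or 1143 genes higher and 1573, 1447 or 1260 lower. Between 100 and 20 µg/mL 63 genes were higher (0.461%) and 109 lower (0.798%), together 172 (1.26%). That count is inside the range of replicate pairs but above their median of 84. With scaling by library totals alone the split was 128 higher and 69 lower. Of the 172 genes, 88 exceeded every replicate pair, against 10 of 57 between Angelicae 100 and 20 µg/mL. Between Paeoniae 20 and Angelicae 20, with no dose step, 77 of 168 did so, and between Paeoniae 100 and Angelicae 100 25 of 66. With Angelicae 20 as the reference, 36 genes were higher and 40 lower at 100 µg/mL Paeoniae. The part of the 20 µg/mL reference in the 88 was not tested. Between 500 and 100 µg/mL 1143 were higher and 1260 lower (17.6%). The 100 µg/mL value lay between the other 2 for 2325 of the 3023 genes (76.9%), yet 97 were past 1.5-fold in the same direction from 20 to 100 µg/mL and 1989 from 100 to 500 µg/mL. The 3023 genes were picked by their 500 against 20 µg/mL difference, so error in the 20 µg/mL library also raises the share in between. That share alone does not show a graded response. The Angelicae libraries differed in 75 genes between 500 and 20 µg/mL (0.549%). In the 500 µg/mL Paeoniae library 24.1% of measured genes were at their highest and 22% at their lowest of all 60 libraries.

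**Figure D1:**
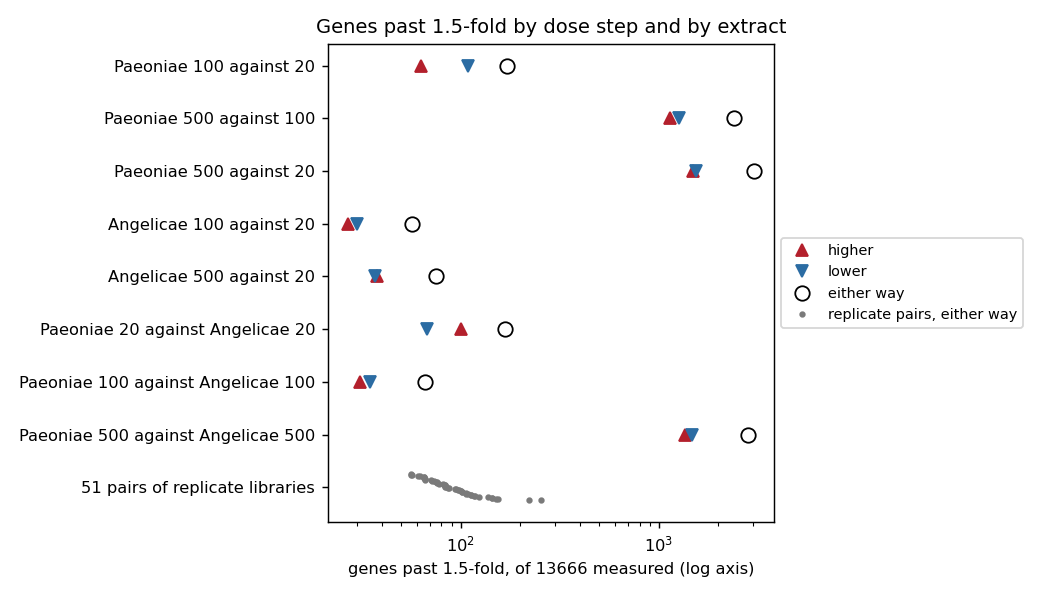
Genes past 1.5-fold of 13666 measured (log axis) in each comparison of libraries, with higher and lower genes as triangles and their sum as open circles, and the 51 replicate pairs as grey points. Every comparison that involves Paeoniae 500 has 2403 to 3023 genes, above the highest replicate pair at 255, and every other one has 57 to 172.

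Hypoxia and glycolysis genes gave the highest median of all lists. Of the 22 genes, all measured, 21 were higher at 500 than at 20 µg/mL past 1.5-fold and past every replicate pair, and 0 were lower, where 10.9% of all measured genes were higher and 10.5% were higher past every replicate pair. Their median difference was 1.41, against 0.01 over all measured genes and 0.04 for the same list with Angelicae. Against the vehicle, Angelicae 20 and Paeoniae 100 the median was 1.78, 1.54 and 1.3. For 21 of the 22 the 500 µg/mL Paeoniae library was the highest of all 60, as it was for 24.1% of all measured genes. Between 100 and 20 µg/mL 0 of 22 were past 1.5-fold and their median was 0.22. The standard deviation of this list median between replicate libraries was 0.05.

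Among the oxygen sensors, EGLN3, a HIF prolyl hydroxylase that HIF itself induces, had 19.6, 24.6 and 99.0 CPM at 20, 100 and 500 µg/mL Paeoniae, against 24.2, 21 and 23.3 CPM at the same Angelicae doses and 19.5 to 20.7 CPM in the vehicle. The value at 500 µg/mL stood far above the other 8 libraries, with a difference from 20 µg/mL of 2.28 (interval 2.18 to 2.50), where replicate pairs differed by up to 0.38. EGLN1, the main sensor, had 64.3, 77.3 and 120 CPM over the Paeoniae doses, against 69.8, 73.3 and 73.1 CPM with Angelicae. CA9 (ENSG00000107159, chromosome 9, 35673856 to 35681159 on GRCh38), a cell-surface carbonic anhydrase that exports acid and a standard hypoxia marker, had 78.9, 96.1 and 279 CPM. Its Angelicae values were 71.4, 69.7 and 67.7 CPM and its vehicle range 76.5 to 83.3 CPM, so the 100 µg/mL Paeoniae library was already above both, by 0.46 over Angelicae 100. The CA9 difference between 500 and 20 µg/mL was 1.81 (interval 1.74 to 1.90), against at most 0.20 in a replicate pair.

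Genes of glucose uptake and of the first steps of glycolysis were higher as well. SLC2A1, the basal glucose transporter, had 60.9, 84.5 and 323 CPM over the Paeoniae doses, against 69.6, 74.7 and 74.3 CPM with Angelicae (500 against 20 µg/mL, 2.39). HK2, the inducible hexokinase, had 2.6, 2.89 and 19.1 CPM, against 3.36, 2.2 and 2.9 CPM with Angelicae. PFKFB4, which makes the activator of phosphofructokinase, had 6.39, 6.28 and 38 CPM, against 5.32, 4.78 and 6.32 CPM. For HK2 and PFKFB4 the first 2 Paeoniae doses lay near the Angelicae values and the high dose alone stood out. SLC2A1 at 100 µg/mL Paeoniae was already above its Angelicae values, and was 1.92 higher at 500 than at 100 µg/mL. The aldolase ALDOC, whose promoter is shown above, had 14.7, 22.4 and 79.7 CPM over the Paeoniae doses, against 12, 12.2 and 13.1 CPM with Angelicae, and was the list member furthest above Angelicae at 100 µg/mL (0.82). PGK1, which makes ATP in the payoff phase of glycolysis, had 556, 789 and 1422 CPM, against 674, 699 and 702 CPM. The abundant glycolytic genes differed less, with LDHA, lactate dehydrogenase, 0.78 higher and ALDOA 0.67 higher. ENO1 was 0.39 higher (2684 against 2051 CPM) and was the member that stayed inside 1.5-fold. PDK1, the kinase that keeps pyruvate out of mitochondria, had 70.5 CPM at 500 and 20.7 CPM at 20 µg/mL (1.72).

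Secreted and mitochondrial members of the list followed. ADM, adrenomedullin, a vasodilator peptide, had 13.8, 19.1 and 79.2 CPM over the Paeoniae doses, against 17.1, 16.9 and 15.4 CPM with Angelicae. VEGFA, the main growth factor of blood vessels, had 40.9, 41.2 and 104 CPM, against 37.4, 37.1 and 36.9 CPM. NDRG1, a stress and differentiation gene, had 119, 127 and 691 CPM, against 104, 102 and 107 CPM, and a difference of 2.52 between 500 and 20 µg/mL. Each of the 3 had its highest value of the 6 libraries at 500 µg/mL Paeoniae. BNIP3, a mitophagy receptor whose promoter is shown above, had 67.1, 74.9 and 296 CPM, against 63, 63 and 68.4 CPM with Angelicae (2.12, at most 0.14 in a replicate pair). Its relative BNIP3L had 256 CPM at 500 and 96.7 CPM at 20 µg/mL. ANKRD37, a gene of uncertain role that HIF induces, had the lowest level on the list, with 0.649, 0.587 and 2.54 CPM over the Paeoniae doses and 1.7, 2.12 and 0.835 CPM with Angelicae. Its Paeoniae value at 500 µg/mL was only just above its Angelicae value at 100 µg/mL.

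**Figure D2:**
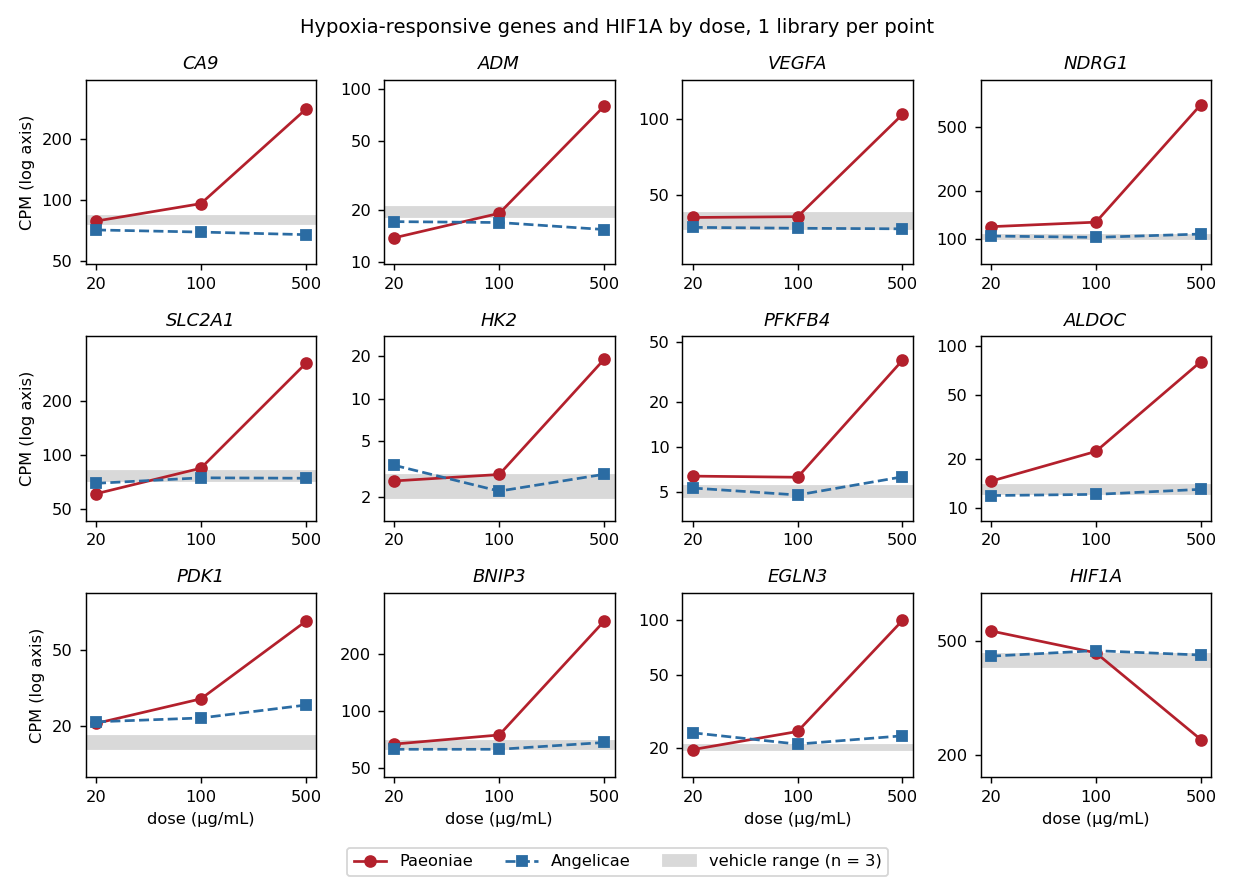
CPM (log axis) against dose for 11 hypoxia-responsive genes and HIF1A, with Paeoniae in red, Angelicae in blue and the range of the 3 vehicle libraries in grey, 1 library per point. The 11 target genes stand above Angelicae at 500 µg/mL Paeoniae (CA9 at 279 against 67.7 CPM), while HIF1A stands below (226 against 447 CPM).

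The messenger of HIF1A itself went the other way. HIF1A had 543, 455 and 226 CPM at 20, 100 and 500 µg/mL Paeoniae, against 443, 463 and 447 CPM with Angelicae and 407 to 452 CPM in the vehicle. The difference between 500 and 20 µg/mL was -1.26 (interval -1.32 to -1.22), against at most 0.32 in a replicate pair, and -0.98 against Angelicae 500. EPAS1, the second HIF-alpha, had 438 CPM at 500 and 313 CPM at 20 µg/mL, inside 1.5-fold. ARNT, the shared partner, had 54.2 and 55.1 CPM, and VHL 43.8 and 32.2 CPM, at the same doses. CITED2, which HIF induces and which competes for its coactivator, was 1.27 higher (109 against 44.5 CPM). Of the 10 measured genes of the HIF machinery, 4 were higher and 1 lower past 1.5-fold, with a median of 0.46. EGLN1 and EGLN3 are on this list and on the hypoxia list, and P4HA1 on the hypoxia list and the next. This list and the next 2 were chosen after the values had been seen.

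Enzymes that mature collagen, several of which are known HIF targets, were mostly higher. Of 14 measured, 9 were higher past 1.5-fold at 500 against 20 µg/mL and 0 lower, with a median of 0.81. The shares of all measured genes were 10.9% higher and 11.2% lower. LOXL2, a lysyl oxidase that cross-links collagen, had 31.1, 44.8 and 207 CPM at 20, 100 and 500 µg/mL, against 31.4, 37.5 and 40.8 CPM with Angelicae. LOX had 23, 25.6 and 81.6 CPM, against 20.6, 21.9 and 21.9 CPM. PLOD2, a lysyl hydroxylase, had 276, 351 and 848 CPM, against 295, 301 and 317 CPM. For each of the 3 the high dose stood well above every other of the 6 libraries. P4HA1 and P4HA2, the catalytic subunits of collagen prolyl hydroxylase, were 1.42 and 1.76 higher. PLOD3 (62.6 against 64.1 CPM) and SERPINH1, a collagen chaperone (87.7 against 78.2 CPM), differed little. Insulin-like growth factor binding proteins were mostly higher too. IGFBP3, a carrier of insulin-like growth factors, had 5.09, 5.66 and 84.9 CPM at 20, 100 and 500 µg/mL, against 5.11, 4.95 and 5.27 CPM with Angelicae and 2.99 to 5.38 CPM in the vehicle. Its difference between 500 and 20 µg/mL was 3.82 (interval 3.77 to 4.36), against at most 0.68 in a replicate pair. With the vehicle as the reference IGFBP3 was 4.04 higher. IGFBP1 had 0, 4 and 174 counts over the Paeoniae doses, and 5, 1 and 2 counts with Angelicae. With a floor of 3 counts in place of the 0, its level at 500 µg/mL (8.67 CPM) was at least 57.9-fold higher than at 20 µg/mL. This bound covers counting error in the 20 µg/mL library only. The 4 counts at Paeoniae 100 and the 5 at Angelicae 20 were above that floor, so the fold against those libraries is smaller. Of the 7 binding proteins 5 were higher past 1.5-fold, and 4 of these also passed every replicate pair.

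ATF4 targets formed the second large group. Of 26 measured, 19 were higher and 1 lower past 1.5-fold between 500 and 20 µg/mL, beside 10.9% and 11.2% of all measured genes. Their median was 0.89 (0.04 with Angelicae). ASNS, asparagine synthetase, had 32.6, 32.7 and 89 CPM at 20, 100 and 500 µg/mL Paeoniae, against 32.3, 34.2 and 36.2 CPM with Angelicae. Its level was flat up to 100 µg/mL and 1.42 higher at 500 µg/mL (interval 1.32 to 1.58, at most 0.21 in a replicate pair). TRIB3, a pseudokinase that feeds back on ATF4, had 38.8, 47.6 and 176 CPM (2.15). ADM2 (intermedin), which is related to adrenomedullin, had 0.649, 0.545 and 8.47 CPM (2.52). Stanniocalcin 2 (STC2), a secreted glycoprotein, had 26.6, 27.2 and 141 CPM (2.36). For these genes too the first 2 doses lay close together. DDIT3, the transcription factor CHOP, had 5.69, 6.2 and 16.3 CPM, and CHAC1, which degrades glutathione, 2.4, 2.14 and 11.1 CPM. MTHFD2, a mitochondrial folate enzyme, was 1.41 higher and PCK2, mitochondrial phosphoenolpyruvate carboxykinase, 1.16 higher. Serine synthesis was uneven, with PHGDH 0.66 and PSAT1 0.85 higher while PSPH differed by 0.03 and SHMT2 by -0.06. CHKA, choline kinase, was the 1 member lower past 1.5-fold (-0.67).

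Amino acid transporters were higher in 10 of 12 past 1.5-fold, against 10.9% of all measured genes. Their median was 0.74 and 0 were lower. SLC7A5 and SLC3A2, the 2 chains of the large neutral amino acid transporter, were 0.75 and 1.04 higher. SLC7A5 had 1061, 1171 and 1791 CPM at 20, 100 and 500 µg/mL. SLC1A4, a transporter of alanine and serine, had 4.94, 6.83 and 20.4 CPM (1.85). SLC7A11, the cystine importer, had 128, 142 and 223 CPM (0.80) and is also on the ATF4 and NRF2 lists. Endoplasmic reticulum chaperones and other genes of the unfolded protein response gave fewer calls. Of 18 measured genes 5 were higher and 0 lower, beside 10.9% and 11.2% of all measured genes, with a median of 0.30. HSPA5, the main chaperone, had 512 CPM at 500 and 445 CPM at 20 µg/mL (0.20), and XBP1 99.3 and 116 CPM (-0.23). DNAJB9 (1.31) and EDEM1 (1.17), which serve degradation of misfolded proteins, had the largest differences.

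p53 targets were higher in 16 of 22 past 1.5-fold, against 10.9% of all measured genes, and 0 were lower. Their median was 0.77 (-0.01 with Angelicae). CDKN1A, the cell cycle inhibitor p21, had 125, 141 and 307 CPM at 20, 100 and 500 µg/mL, a difference of 1.29 (at most 0.21 in a replicate pair). Against the vehicle its difference was 0.93. GDF15, a secreted stress factor, had 3.69, 6.24 and 27.1 CPM and was the 1 member past 1.5-fold at 100 against 20 µg/mL (0.63, where replicate pairs differed by up to 0.48). At 500 µg/mL GDF15 was 2.58 above Paeoniae 20, but 1.95 above Paeoniae 100 and 2.00 above the vehicle. Its level at 100 µg/mL thus lay near the vehicle mean, and its level at 20 µg/mL was below both. Apoptosis genes were split, with BBC3 1.55 and PMAIP1 1.05 higher and BAX 0.31 higher. CCNG1 (1.09) and DDB2 (1.04) were higher, whereas XPC (0.05) and TIGAR (-0.12) differed little. MDM2, the ubiquitin ligase that limits p53, was 0.60 higher (210 against 138 CPM). GDF15 and SESN2 also respond to ATF4.

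Genes that report growth-factor signalling through MAP kinases were higher in 15 of 20 past 1.5-fold, against 10.9% of all measured genes. Their median was 0.91 and 0 were lower. DUSP5, a phosphatase of ERK, had 9.68, 8.88 and 44.7 CPM at 20, 100 and 500 µg/mL (2.10). The immediate early transcription factor FOS had 7.69, 8.13 and 35.3 CPM (2.06). EGR1 had 3.24, 3.31 and 12.1 CPM (1.63), and JUN 11.8, 12.5 and 35.1 CPM (1.49). At 100 µg/mL the list median was -0.06, so no step at that dose was seen. MYC (-0.19) and CCND1, cyclin D1 (-0.32), differed in the other direction, within 1.5-fold.

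Cholesterol synthesis and uptake genes were higher in 13 of 25 past 1.5-fold, against 10.9% of all measured genes. Their median was 0.63 and 0 were lower. INSIG1, a sterol sensor of the endoplasmic reticulum, had 53.9, 52.3 and 170 CPM at 20, 100 and 500 µg/mL (1.64, at most 0.15 in a replicate pair). With the vehicle as the reference INSIG1 was 1.15 higher. HMGCS1, an early enzyme of the pathway, had 180 CPM at 500 and 209 CPM at 20 µg/mL, inside 1.5-fold. The list median lay inside 1.5-fold with the other references, at 0.38 against the vehicle, 0.53 against Angelicae 20 and 0.45 against Paeoniae 100. NPC1, which exports cholesterol from lysosomes, had the largest difference of the autophagy and lysosome list, of which 10 of 22 were higher and 0 lower. The median of that list was 0.51, against 0.28 with the vehicle as the reference. Against Angelicae at 500 µg/mL it was 0.35 with 7 higher, where 9.93% of all measured genes were higher. Fatty acid synthesis genes were mixed, with 4 of 12 higher and 1 lower. SCD, stearoyl-CoA desaturase, had 1006, 1128 and 2356 CPM (1.23), FASN 1318, 1384 and 1228 CPM (-0.10) and ELOVL6, an elongase, 90.7, 90.7 and 46.2 CPM (-0.96).

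Of the aryl hydrocarbon receptor targets, 4 of 8 measured were higher and 1 lower, beside 10.9% and 11.2% of all measured genes. STC2 of the ATF4 list is among them, and the median was 0.63 (0.53 against Paeoniae 100). At 500 µg/mL the median against Angelicae was 0.21, with 3 higher and 1 lower (9.93% and 10.7% of all measured genes). For 0 of the 8 was the Paeoniae library the highest of 60, against 24.1% of all measured genes. CYP1B1, an oxidising enzyme of that receptor's response, had 122, 132 and 237 CPM at 20, 100 and 500 µg/mL (0.95), and TIPARP, its feedback repressor, 27.4, 31 and 89.3 CPM (1.67). CYP1A1, its most sensitive target, had 0.0998, 0.335 and 1.15 CPM, against 0.166, 0.416 and 0.835 CPM with Angelicae, and was below the level limit. UGT1A6, a conjugating enzyme, was 1.31 lower, which is uncertain because the UGT1A genes share exons. NRF2 targets were higher in 2 of 26 and lower in 1, with a median of -0.09. HMOX1, heme oxygenase, had 42.2, 43.3 and 42.2 CPM at the 3 doses, and NQO1 1075, 1233 and 1009 CPM. Iron genes were higher in 1 of 17, which was SLC39A14 (1.02). TFRC, the transferrin receptor and a gene that iron shortage and HIF both raise, had 296, 361 and 410 CPM. Its difference was inside 1.5-fold (0.47, and 0.18 against Paeoniae 100). MT2A, a metallothionein with close relatives that can share its reads, had 386, 297 and 553 CPM (0.52, and 0.94 against Angelicae 20), within the 1.00 seen between replicate libraries.

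**Figure D3:**
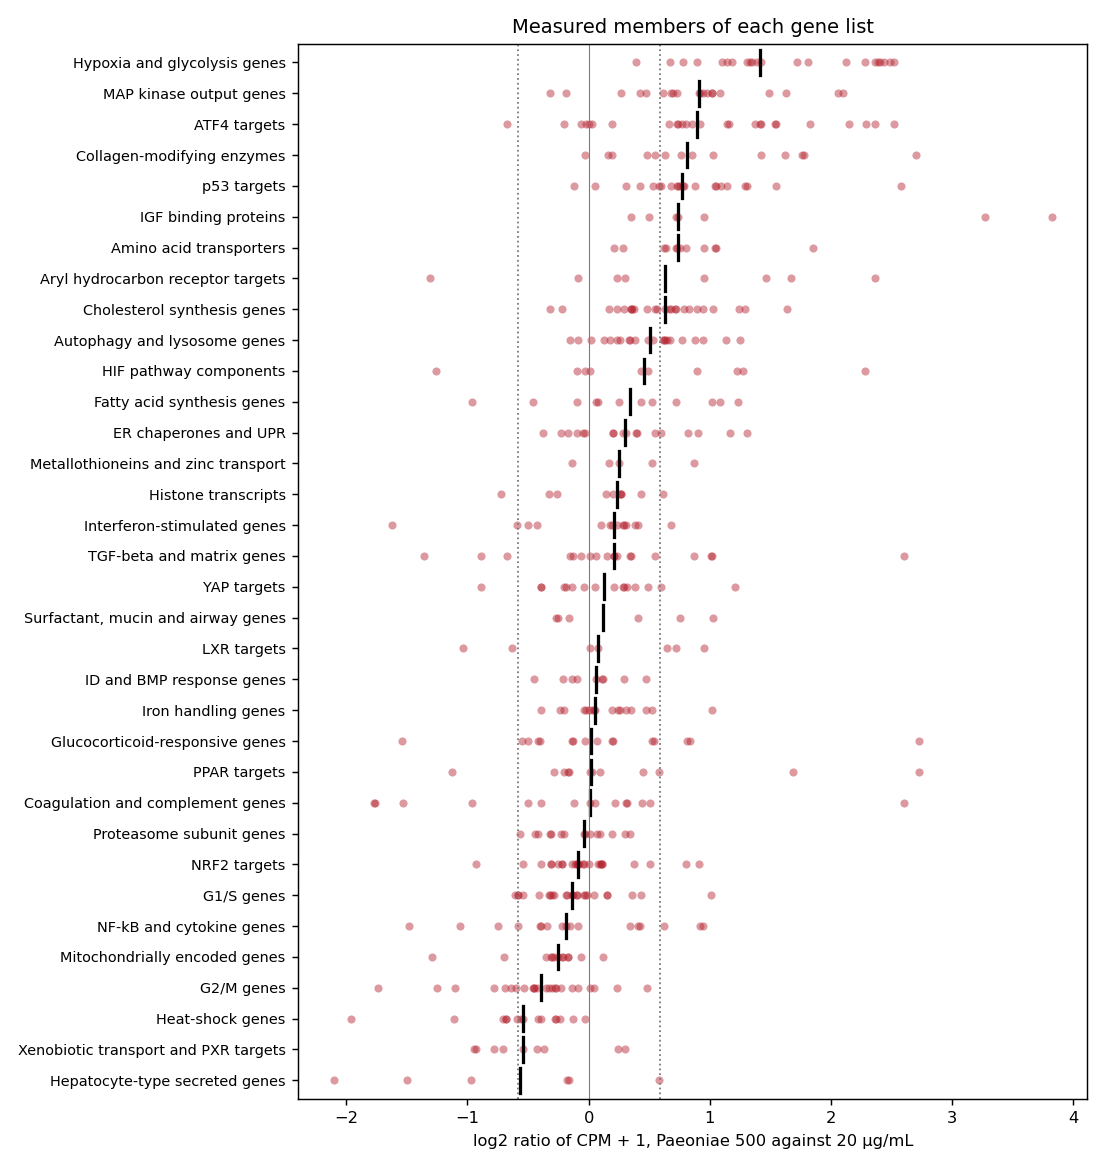
Log2 ratio of CPM plus 1 between 500 and 20 µg/mL Paeoniae for each measured gene of 34 lists (points), with the list median as a black bar and 1.5-fold as dotted lines. Hypoxia and glycolysis genes have the highest median (1.41) and hepatocyte-type secreted genes the lowest (-0.57).

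Fewer lists held mostly lower genes. Heat-shock genes were lower in 6 of 15 past 1.5-fold, with 0 higher and a median of -0.54 (0.08 with Angelicae), where 11.2% of all measured genes were lower. The 500 µg/mL library was the lowest of 60 for 12 of the 15, against 22% of all measured genes. HSP90AA1, the inducible cytosolic chaperone, had 1436, 1322 and 893 CPM at 20, 100 and 500 µg/mL (-0.68). HSPA4L, a relative of the large heat-shock proteins, had 44.5, 40 and 10.7 CPM (-1.96). HSPA1A had 263, 230 and 122 CPM (-1.11), which is uncertain because HSPA1B is a near-identical copy. The mitochondrial chaperone HSPD1 differed by -0.03.

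Cell cycle genes of the G2 and M phases were lower in 7 of 24, against 11.2% of all measured genes, with 0 higher. Their median was -0.39 (-0.26 against Angelicae 20). They had their lowest of 60 values at 500 µg/mL in 12 of 24, against 22% of all measured genes. CENPE, a kinetochore motor, had 44.5, 35 and 12.7 CPM at 20, 100 and 500 µg/mL (-1.74, and -1.21 against the vehicle). The spindle checkpoint kinase BUB1B had 36.4, 35.8 and 14.7 CPM, and BUB1 was 1.10 lower. MKI67, a standard proliferation marker, had 461, 384 and 268 CPM (-0.78, at most 0.41 in a replicate pair), and was inside 1.5-fold against the vehicle (-0.52), Angelicae 20 (-0.41) and Paeoniae 100 (-0.52). UBE2C, a ubiquitin-conjugating enzyme of mitosis, had 32 against 31.9 CPM, and CDK1 was 0.48 higher (57 against 40.5 CPM). In the G1/S list 1 of 24 was higher and 1 lower, with CDT1, a licensing factor, 1.01 higher and the helicase subunit MCM6 0.61 lower.

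Some genes of xenobiotic transport and of liver-type secretion were lower. On the xenobiotic transport list 4 of 9 measured were lower and 0 higher (median -0.54), among them the efflux pump ABCC3 with 625, 588 and 327 CPM at 20, 100 and 500 µg/mL (-0.93). Of 6 hepatocyte-type secreted genes 3 were lower and 0 higher, with a median of -0.57. That median was -0.36 with Angelicae, -1.37 with Glycyrrhizae and -0.40 to -0.14 over the 6 extracts other than Paeoniae and Glycyrrhizae. At 500 µg/mL 1 of the 6 was higher and 2 lower with Paeoniae than with Angelicae, with a median of -0.15. The shares of all measured genes there were 9.93% higher and 10.7% lower. KNG1, kininogen, had 18.7, 17.1 and 3.59 CPM (-2.10) and APOB, the scaffold of lipoproteins, 10, 8.38 and 2.89 CPM (-1.50, and -0.96 against the vehicle). The complement gene C5 had 135, 143 and 39.1 CPM and was 1.76 lower. The coagulation and complement list had 1 gene higher and 4 lower of 15, with a median of 0.01.

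Across all genes, 1316 met the level, fold, replicate-pair and in-between conditions for naming, 719 higher and 597 lower. Among the 12 genes furthest up were IGFBP3, ANGPTL4, LOXL2, GDF15, NDRG1, ADM, SLC2A1, ALDOC, STC2, STC1 and ENO2. ANGPTL4, a secreted inhibitor of lipoprotein lipase and a PPAR and HIF target, had 39, 44 and 264 CPM at 20, 100 and 500 µg/mL (2.73). STC1, a stanniocalcin, had 40.5, 44.2 and 208 CPM, and ENO2, neuronal enolase, 8.18, 9.8 and 44.1 CPM. The 12 genes furthest down began with DNAJC15, a J-protein of the mitochondrial import motor, with 109, 66.5 and 11.4 CPM (-3.14, at most 0.54 in a replicate pair). Its Angelicae values were 79.3, 77.3 and 77.4 CPM, and its difference against the vehicle was -2.62. SLCO1B3, an organic anion transporter, had 51.9, 48.7 and 8.57 CPM (-2.47), and KRIT1, which stabilises vessel junctions, 50.9, 45.2 and 12.9 CPM (-1.90). BOLA2 (-2.79), GOLGA8A (-1.96), HERC2P2 (-1.94), NSUN5P1 (-2.13) and STAG3L5P-PVRIG2P-PILRB (-1.90) belong to multi-copy families or overlapping loci, so their reads can be shared and their values are uncertain. The others were KNG1, HSPA4L, PABPC1L (-2.27) and RNF207 (-1.91).

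For the remaining lists the counts of genes higher and lower past 1.5-fold at 500 against 20 µg/mL are given, beside 10.9% and 11.2% of all measured genes. They were 3 and 3 of 17 for NF-kB and cytokine genes, 1 and 2 of 14 for interferon-stimulated genes, 4 and 3 of 19 for TGF-beta and matrix genes, and 2 and 1 of 16 for YAP targets. Glucocorticoid-responsive genes gave 3 and 1 of 16, PPAR targets 2 and 1 of 12, LXR targets 3 and 2 of 7, and airway genes 2 and 0 of 6. Histone transcripts gave 1 and 1 of 10, metallothioneins and zinc transport 1 and 0 of 5, and proteasome and ID/BMP genes 0 of 15 and 0 of 9. CXCL8, a neutrophil chemokine, had 1.8, 1.13 and 4.29 CPM (0.92) while CXCL1 had 17.7, 13.9 and 5.68 CPM (-1.48). Within the matrix list TGFB1 was 1.02 higher, with 107 CPM at 500 and 52.6 CPM at 20 µg/mL, and THBS1, thrombospondin, 0.67 lower.

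At matched dose the extracts differed in 2824 genes at 500 µg/mL, 1357 higher (9.93%) and 1467 lower (10.7%) with Paeoniae than with Angelicae, together 20.7%. Scaling by library totals alone gave 861 higher and 2060 lower. At 100 µg/mL 31 were higher and 35 lower (0.483%), and at 20 µg/mL 100 higher and 68 lower (1.23%), both inside the 56 to 255 of replicate pairs. Of these, 25 genes at 100 and 77 at 20 µg/mL exceeded every replicate pair. For hypoxia and glycolysis genes the median difference from Angelicae was -0.03 at 20, 0.22 at 100 and 1.54 at 500 µg/mL, and 21 of 22 were past 1.5-fold above Angelicae at 500 µg/mL. ATF4 targets gave -0.03, 0.02 and 1.06, p53 targets -0.04, 0.07 and 0.78, and MAP kinase output genes 0.11, -0.01 and 0.95. Cholesterol synthesis genes gave -0.08, 0.09 and 0.61, and heat-shock genes -0.01, -0.10 and -0.66. At both lower doses these medians lay within 0.22 of Angelicae. Between replicate libraries the standard deviation of these list medians was 0.04 to 0.08. It was 0.05 for hypoxia and glycolysis genes, beside their 0.22 at 100 µg/mL. That spread is of single libraries within a group. It does not measure a difference between extracts without replicates. LEFTY1, an antagonist of Nodal, was among the 5 genes furthest below Angelicae, with 2.34 CPM at 500 µg/mL Paeoniae against 13.8 CPM at 500 µg/mL Angelicae.

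**Figure D4:**
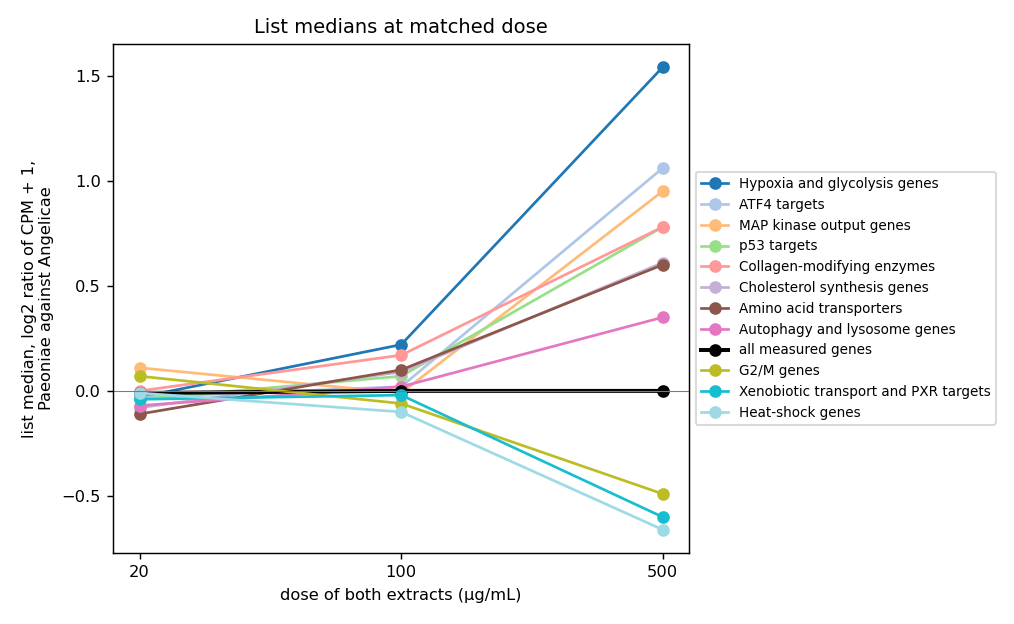
Median log2 ratio of CPM plus 1, Paeoniae against Angelicae at the same dose, for 11 lists and for all measured genes (black), 1 library per extract and dose. List medians lie between -0.11 and 0.22 at 20 and 100 µg/mL and spread from -0.66 to 1.54 at 500 µg/mL. The median of all measured genes, which the scaling sets, is -0.01 to 0.00.

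Among the 8 extracts, only Paeoniae and Glycyrrhizae (licorice, 3 libraries per dose) gave more than 100 genes past 1.5-fold between 500 and 20 µg/mL. Glycyrrhizae gave 993 (496 higher, 3.63%, and 497 lower, 3.64%) and the other 6 gave 19 to 75. Replicated extracts were compared by means of 3 libraries per dose (2 for Palmul-tang), which carry less error than single libraries. Paeoniae and Angelicae had 1 library per dose, and the 75 is the Angelicae count. The higher genes of Paeoniae and Glycyrrhizae shared 226, which is 15.2% of the Paeoniae genes, where 3.63% of all measured genes were higher with Glycyrrhizae. It is 45.6% of the Glycyrrhizae genes, where 10.9% of all measured genes were higher with Paeoniae. They shared 162 lower genes, which is 10.5% of the Paeoniae genes, beside 3.64% of all measured genes lower with Glycyrrhizae, and 32.6% of the Glycyrrhizae genes, beside 11.2% lower with Paeoniae. Of the Paeoniae genes, 26 higher ones and 25 lower ones were past 1.5-fold in the opposite direction with Glycyrrhizae. The difference between the extracts was not tested.

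Hypoxia and glycolysis genes had a median of 1.41 with Paeoniae, against -0.04 to 0.13 with the other 7 extracts, where Glycyrrhizae gave -0.04. CA9 was 1.81 higher with Paeoniae and 0.61 lower with Glycyrrhizae, and BNIP3 2.12 and 0.10 higher. For NDRG1 the values were 2.52 and 0.11. In ATF4 targets the median was 0.89 with Paeoniae and 1.67 with Glycyrrhizae, and ASNS was 1.42 and 2.79 higher. p53 targets had 0.77 and 0.30, MAP kinase output genes 0.91 and 0.53, and cholesterol synthesis genes 0.63 and -0.08. Aryl hydrocarbon receptor targets had 0.63 and 1.61. HMOX1 differed by 0.00 with Paeoniae and 1.33 with Glycyrrhizae. Within the hypoxia list VEGFA was higher with both extracts, by 1.33 with Paeoniae and 1.14 with Glycyrrhizae, and so was HK2, by 2.49 and 1.09.

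**Figure D5:**
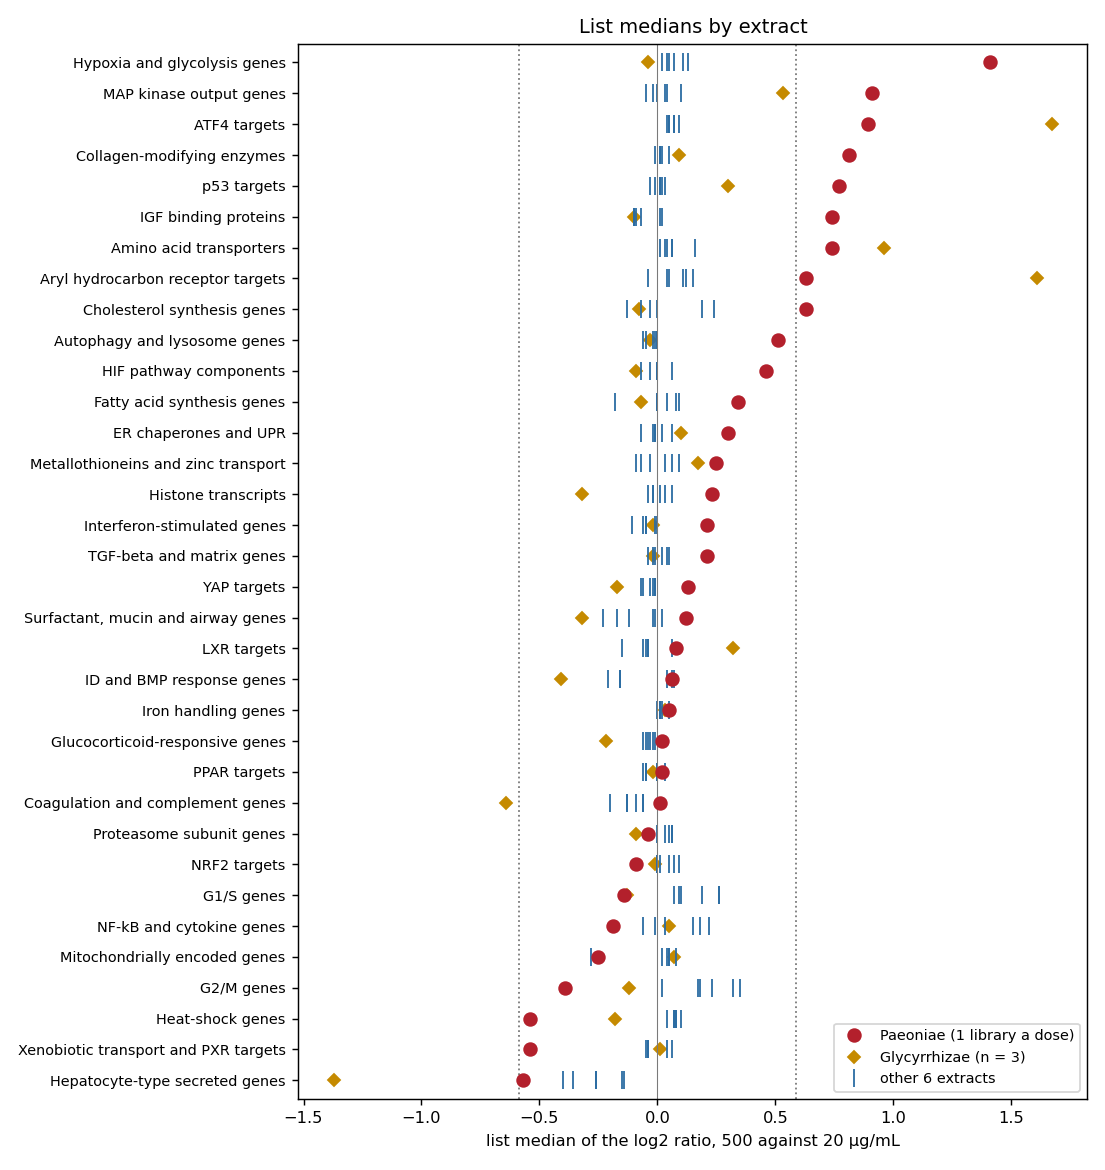
Median log2 ratio between 500 and 20 µg/mL of each list, for Paeoniae (red, 1 library per dose), Glycyrrhizae (diamonds, 3 per dose) and the other 6 extracts (bars), with 1.5-fold as dotted lines. Hypoxia and glycolysis genes reach 1.41 with Paeoniae and no more than 0.13 with any other extract, while ATF4 targets are higher with Glycyrrhizae (1.67) than with Paeoniae (0.89).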

How the data were processed

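The tools named in the submitters' processing notes are FastQC 0.11.9, Trim Galore 0.6.5, STAR 2.7.3a and RSEM 1.3.3, and the build is GRCh38. Per the labels, libraries were made with a directional kit and read as 100 bp pairs. No annotation release or strand setting is given in the sources used here, so reads of a gene and its antisense partner may not be told apart. The authors deposited expected counts for 60675 gene identifiers, which were rounded to whole numbers (76% of values above 0 were whole within 1e-09). Of 270 columns, 210 were not used.

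Libraries were scaled by TMM of edgeR 4.0.16 (R 4.3.3) over all 60 libraries. Further steps used Python 3.11.15. CPM was computed on these sizes, a pseudocount of 1 CPM was added before log2, and genes averaging 1 CPM or more over the 6 libraries were kept. No test was run. Names and GRCh38 positions came from the gene name table and GENCODE 29, with 56558 identifiers matched.

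The libraries are defined by their labels, but they were chosen for description, and the gene lists were chosen, with earlier results of these data known. The 35 lists (31 of pathways, 4 of markers, 591 entries with the 3 lists added after the values were seen, 1 unmatched) were written by hand. Named genes were the 12 genes furthest up and the 12 furthest down at 10 CPM or more that passed 1.5-fold and every replicate pair with the 100 µg/mL value in between, the 2 largest differences of each list, the 5 genes furthest each way from Angelicae 500, and 13 fixed genes. Further list members were named after their values were seen, and some genes the rule names are not reported here. The counting steps were tested on simulated data.

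Alternatives were DESeq2 size factors (median of ratios, computed with edgeR), library totals, other pseudocounts, filters and folds, and other reference libraries. Totals without mitochondrial genes and Paeoniae 100 as the reference were added after the data were seen.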

Additional observations from a re-analysis of the deposited data

How the results depend on the processing

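No paired analysis was possible because each dose has 1 library and the groups share only 1 replicate number. The counts between 500 and 20 µg/mL (1487 higher, 1536 lower) became 342 and 453 at 2-fold and 3362 and 3173 at a ratio of 5 to 4, and stayed within 1.5 times under the other 10 settings, from 1079 to 1734 higher and 1076 to 1887 lower.

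Between 100 and 20 µg/mL the counts were small and moved with most settings. The 63 higher genes became 128 with library totals, 166 with a pseudocount of 0.25, 19 at a mean of 5 CPM, 9 at 2-fold, 598 at 5 to 4, 35 past every replicate pair, 109 against the vehicle and 36 against Angelicae 20. The 109 lower genes became 69, 221, 52, 26, 698 and 53 under the first 6 of these, 179 with no filter and 40 against Angelicae 20.

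Between Paeoniae 500 and Angelicae 500 the 1357 higher genes became 861 with library totals, 350 at 2-fold and 3159 at 5 to 4, and the 1467 lower genes 379 and 3149 at those folds. The cause was not tested.

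Of 80 named genes past 1.5-fold, 80 stayed so in the same direction with DESeq2 size factors, library totals or a pseudocount of 0.25, and 72 with the vehicle, Angelicae 20 or Paeoniae 100 as the reference. MKI67 was among those lost with each of these 3. MT-ND6 reversed to 0.59, 0.22 and 0.36 with these references, and MT-ATP8 to 0.26 with Paeoniae 100. Of 11 lists with a median past 1.5-fold, 2 of them marker lists with 1 measured gene, 11 stayed so under the first 3 settings and 10, 10 and 9 with these references in the order given. Cholesterol genes were lost each time, and aryl hydrocarbon receptor targets with Paeoniae 100. With 1 library per dose no library could be left out, and the dose cannot be told apart from the handling of its library.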

Other observations

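By transcript class, the share of genes lower at 500 against 20 µg/mL Paeoniae can be set beside 11.2% of all measured genes. Protein-coding genes were lower past 1.5-fold in 9.78% of 12186, antisense genes in 19.9% of 391, lincRNAs in 20.3% of 296, processed transcripts in 29.9% of 117 and transcribed unprocessed pseudogenes in 33.3% of 174. The median differences were 0.03, -0.16, -0.15, -0.26 and -0.32 in that order. Processed pseudogenes leaned the other way, with 14.1% of 163 higher, 11% lower and a median of 0.11. Against Angelicae 500 the medians of the first 5 classes were 0.02, -0.15, -0.09, -0.27 and -0.30, and at 20 µg/mL Paeoniae against Angelicae they were -0.01, 0.03, -0.02, 0.01 and 0.01. Exon length showed no such pattern, with medians of 0.03, 0.05, 0.02, 0.02 and -0.04 from the shortest to the longest of 5 equal classes of genes. Without a stated strand setting, reads of an antisense gene and its partner cannot be told apart.

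Some genes not named above also differed. SGK1 is on the glucocorticoid list, ITGB6 on the TGF-beta and matrix list and AXL on the YAP list, so they are already in the counts above. SGK1, a kinase induced by glucocorticoids, had 136, 146 and 46.1 CPM at 20, 100 and 500 µg/mL (-1.54). ITGB6, a subunit of the integrin that activates TGF-beta, had 4.39, 4.02 and 1.10 CPM (-1.36). AXL, a receptor tyrosine kinase, had 47.9, 51.2 and 112 CPM (1.21), and VIM, vimentin, 776, 801 and 1419 CPM (0.87). CEACAM6, an adhesion gene on the A549 epithelial list, had 137, 135 and 308 CPM (1.16) while KRT18, a keratin of the same list, had 2554, 2374 and 1784 CPM (-0.52).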
